A study of Mus musculus with 12 samples.

Results

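The transcripts of 45 genes of the cell division cycle were followed in neural cells of the mouse dentate gyrus, the region of the hippocampus in which neurons are still made in the adult. The genes were taken by name from 2 lists, 27 genes of DNA replication and 18 genes of mitosis, out of 50600 genes in the count table, and all 45 were found in it. Adult mice of 6 to 9 weeks carried the Nestin-GFP reporter, in which regulatory sequence of the Nestin gene drives green fluorescent protein (GFP) in neural stem cells and progenitors. No group had a treatment or a gene deletion. Live cells without CD31, CD45, O1 and O4, surface markers of endothelial, blood and oligodendrocyte cells, were sorted as stem cells when positive for GFP and for GLAST, a glutamate transporter of astrocytes and stem cells. Cells with GFP alone were taken as progenitors, and cells with GLAST alone as astrocytes. Each of the 12 libraries (4 per cell type) was made from 50 cells by preamplification of polyA RNA. The study describes the libraries of a cell type as biological replicates and says that a single mouse brain per replicate is enough. Which mouse gave each library, and which libraries of different cell types share a mouse, is not stated in the sources used here. The p-values measure the spread between these libraries. Totals ranged from 5357232 to 6253680 counts in astrocytes, from 9041498 to 12535028 in progenitors and from 5031166 to 10435711 in stem cells. Levels are given as CPM, counts per 1000000 counts scaled by TMM factors. The stem cell libraries carry numbers, whereas those of astrocytes and progenitors carry none in the table and are called a to d.

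A dividing cell copies its DNA in S phase and separates the copies in mitosis. The origin recognition complex, with Cdc6 and Cdt1, loads the ring of Mcm2 to Mcm7 onto DNA, and this ring becomes the helicase that opens the double strand once Cdc45 and the GINS complex join it. Polymerase alpha with its primase starts each strand, and the clamp Pcna, placed by the RFC loader, holds the other polymerases to it. In mitosis, Cdk1 with cyclins A and B, the Aurora kinases and Plk1 drive chromosome condensation and spindle assembly, the checkpoint kinases Bub1 and Bub1b delay separation until chromosomes are attached, and Cdc20 and Ube2c then act with the anaphase-promoting complex. Quiescent neural stem cells of the dentate gyrus divide rarely, whereas their progenitors divide often. The factors of the E2F family are known regulators of many replication genes, and many mitosis genes have a CHR element (cell cycle genes homology region) beside CCAAT boxes.

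Promoters of 4 called genes are shown because the replication and mitosis genes differ in these elements. They are those of the genes with the highest progenitor levels among the called genes that have an entry in the RefSeq table, 2 of each list. Each sequence runs from 250 bases before to 50 bases after the RefSeq transcription start on GRCm38.p6, 5′ to 3′ on the strand of the gene. Capitals mark matches on either strand to E2F, searched as TTCCCGC and in the forms TTCGCGC and also TTGGCGC. They also mark CHR, searched as TTTGAA and in the form TTCGAA, and the box written CCAAT. Matches can overlap, as in the runs of 10 or more capitals. Mcm7 is on chr5:138171834-138172133, reverse strand (the first of 2 windows in the table), Mcm6 on chr1:128359656-128359955, reverse strand, Aurka on chr2:172370521-172370820, reverse strand, and Bub1b on chr2:118597961-118598260, forward strand.
Mcm7: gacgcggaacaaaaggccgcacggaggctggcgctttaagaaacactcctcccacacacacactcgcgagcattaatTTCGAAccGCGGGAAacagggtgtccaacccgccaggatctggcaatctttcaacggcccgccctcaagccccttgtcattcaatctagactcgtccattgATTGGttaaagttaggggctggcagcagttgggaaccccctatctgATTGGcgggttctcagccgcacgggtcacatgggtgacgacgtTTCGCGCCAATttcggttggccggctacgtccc
Mcm6: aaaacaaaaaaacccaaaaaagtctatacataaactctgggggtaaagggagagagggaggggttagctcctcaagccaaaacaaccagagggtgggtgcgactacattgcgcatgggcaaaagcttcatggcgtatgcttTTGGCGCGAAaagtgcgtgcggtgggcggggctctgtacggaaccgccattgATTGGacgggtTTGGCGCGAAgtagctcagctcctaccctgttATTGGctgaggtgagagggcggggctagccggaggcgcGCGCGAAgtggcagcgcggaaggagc
Aurka: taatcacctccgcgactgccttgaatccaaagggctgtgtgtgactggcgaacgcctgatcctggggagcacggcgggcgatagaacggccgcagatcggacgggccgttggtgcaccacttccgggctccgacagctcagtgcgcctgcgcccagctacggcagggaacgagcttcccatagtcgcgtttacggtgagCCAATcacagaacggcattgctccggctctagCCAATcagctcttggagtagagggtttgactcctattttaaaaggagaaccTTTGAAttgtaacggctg
Bub1b: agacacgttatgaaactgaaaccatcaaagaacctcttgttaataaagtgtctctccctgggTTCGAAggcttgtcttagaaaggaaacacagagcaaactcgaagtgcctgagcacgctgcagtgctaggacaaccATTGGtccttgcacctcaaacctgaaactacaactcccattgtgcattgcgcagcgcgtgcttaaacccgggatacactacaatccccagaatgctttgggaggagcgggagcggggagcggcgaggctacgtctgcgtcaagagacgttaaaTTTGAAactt
The Mcm7 window holds 3 E2F matches, 1 CHR match and 3 CCAAT boxes, and the Mcm6 window 5 E2F matches, no CHR match and 2 CCAAT boxes, with several of the E2F matches overlapping in pairs. The Aurka and Bub1b windows hold no E2F match but 1 and 2 CHR matches, with 2 CCAAT boxes in Aurka and 1 in Bub1b. In Aurka, Plk1 and Bub1b a CHR match begins 33, 31 and 41 bases after the RefSeq start.

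The 4 windows resemble those of their lists. Of the 45 genes, 39 have a promoter in the table. An E2F match stands in 16 of the 24 replication genes (66.7%) and in 3 of the 15 mitosis genes (20%), against 9.2% of all 27025 genes. A CHR match stands in 5 replication genes (20.8%) and in 11 mitosis genes (73.3%), against 21.7% of all genes. The CCAAT box, a short and common motif, is in 17 replication genes (70.8%) and 13 mitosis genes (86.7%), against 41.1% of all genes. Each of the 11 mitosis genes with a CHR match also has a CCAAT box, a pair held by 9.65% of all genes. Top2a, the topoisomerase that untangles sister chromatids, has 4 CHR matches and 6 CCAAT boxes in its window. Among other genes of the same pathways, taken from lists, 58.1% of 31 replication genes have an E2F match and 73.9% of 46 mitosis genes have a CHR match. These are matches of letters, not binding sites.

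**Figure D1:**
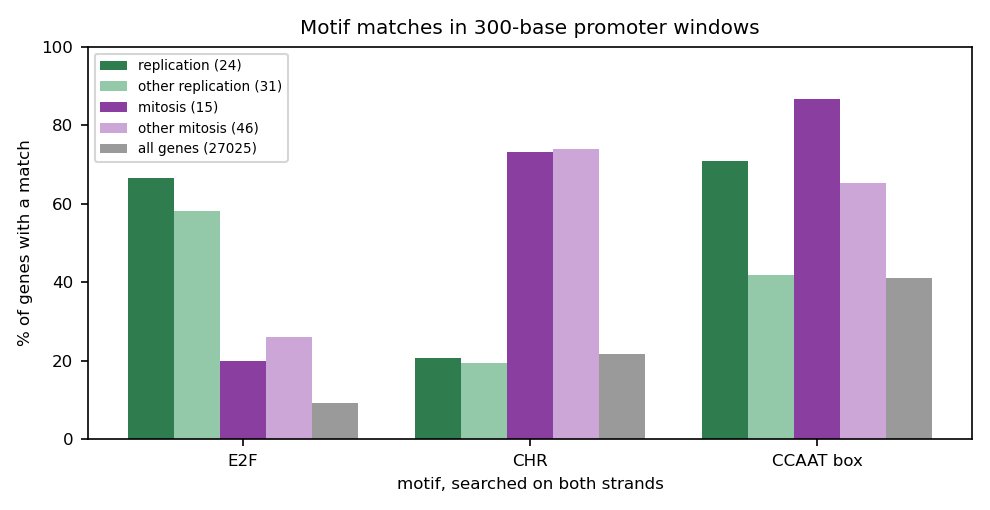
Percent of genes (y axis) with at least 1 match to each of 3 motifs in a window of 300 bases around the transcription start, for the replication and mitosis genes, 2 lists of other genes of the pathways, and all genes of the promoter table (number of genes in parentheses). E2F matches are most frequent in both replication lists (66.7% and 58.1%) and CHR matches in both mitosis lists (73.3% and 73.9%), against 9.2% and 21.7% of all genes.

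Progenitors held more replication transcripts than either other cell type, and the ratio between progenitors and stem cells was larger for mitosis than for replication transcripts. The summed level of the 27 replication genes was 1221 ± 1069 CPM in progenitors, 438 ± 41.7 CPM in stem cells and 391 ± 87.5 CPM in astrocytes (mean ± SD, n = 4 libraries for each). By library, progenitors a to d were at 703, 2825, 644 and 714 CPM, stem cells between 386 and 485 CPM, and astrocytes between 316 and 489 CPM. Every progenitor library thus lay above every other library. The mean was 2.79 times that of stem cells, but 1.57 times without progenitor library b, and 3.12 times that of astrocytes, or 1.76 times without it.

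The 18 mitosis genes summed to 318 ± 362 CPM in progenitors, 11.2 ± 4.25 CPM in stem cells and 94.4 ± 60.9 CPM in astrocytes (mean ± SD, n = 4 libraries for each). Progenitors a to d were at 806, 379, 41.8 and 43.9 CPM, and stem cells 1 to 4 at 5.54, 14.3, 14.6 and 10.4 CPM. Astrocytes a to d were at 119, 4.02, 117 and 137 CPM, so that 3 astrocyte libraries lay above progenitors c and d. The groups overlapped between progenitors and astrocytes, and did not overlap between progenitors and stem cells. Progenitors were 28.3 times above stem cells, or 13.8 times without progenitor library a. In bulk libraries, fewer cells with a transcript cannot be told apart from less of it per cell.

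**Figure D2:**
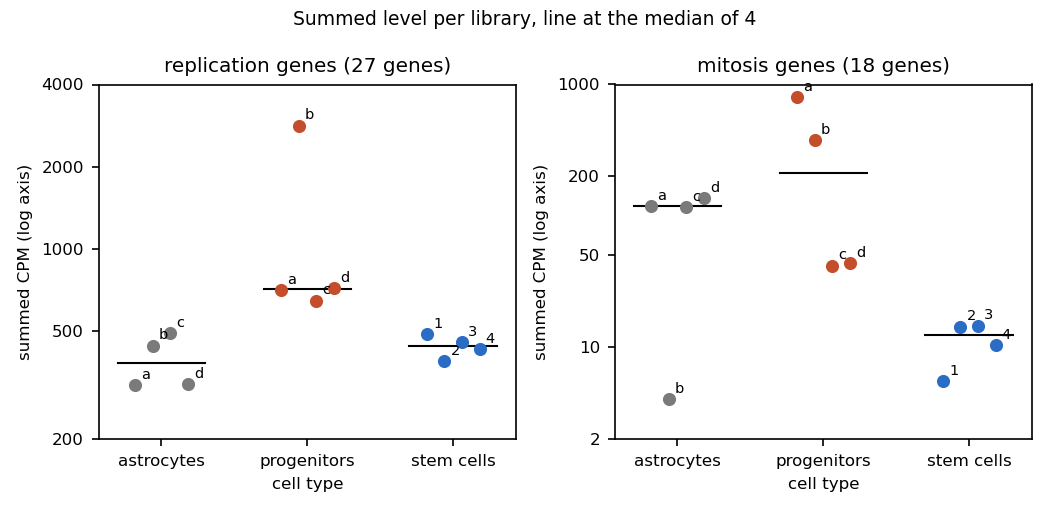
Summed CPM (log axis) of the 27 replication genes (left) and the 18 mitosis genes (right) in each library, with the library letter or number beside each point and a line at the median. Progenitor library b stood at 2825 CPM in the replication genes and progenitor library a at 806 CPM in the mitosis genes, while the 4 stem cell libraries were between 5.54 and 14.6 CPM in the mitosis genes.

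Progenitor libraries had at least 10 counts in 25, 27, 20 and 22 of the 27 replication genes and in 17, 18, 7 and 8 of the 18 mitosis genes. Stem cells reached it in 16.75 ± 1.26 replication genes but 2 ± 0.82 mitosis genes, and astrocytes in 11.25 ± 2.99 and 3 ± 2.16 (mean ± SD, n = 4 libraries for each). With all libraries thinned to 5031166 counts, the expected numbers were 22.3 and 12.1 in progenitors, 16 and 1.76 in stem cells and 10.9 and 2.68 in astrocytes. Over all genes, 16619.5 genes per library had 10 counts in progenitors on average, 13688 in stem cells and 10839 in astrocytes. In stem cells, 10 replication genes reached 10 counts in all 4 libraries, namely Orc6, Mcm6, Mcm7, Prim1, Pcna, Rfc1, Rfc2, Rfc5, Lig1 and Rrm1. No mitosis gene did so in stem cells or astrocytes. Of the mitosis genes, 14 stayed under 10 counts in every stem cell library, and 6 of these, Mki67, Top2a, Aurkb, Plk1, Bub1b and Ube2c, had no count in any. A count of 0 allows a level of up to 0.308 to 0.557 CPM (3 counts) in these libraries.

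**Figure D3:**
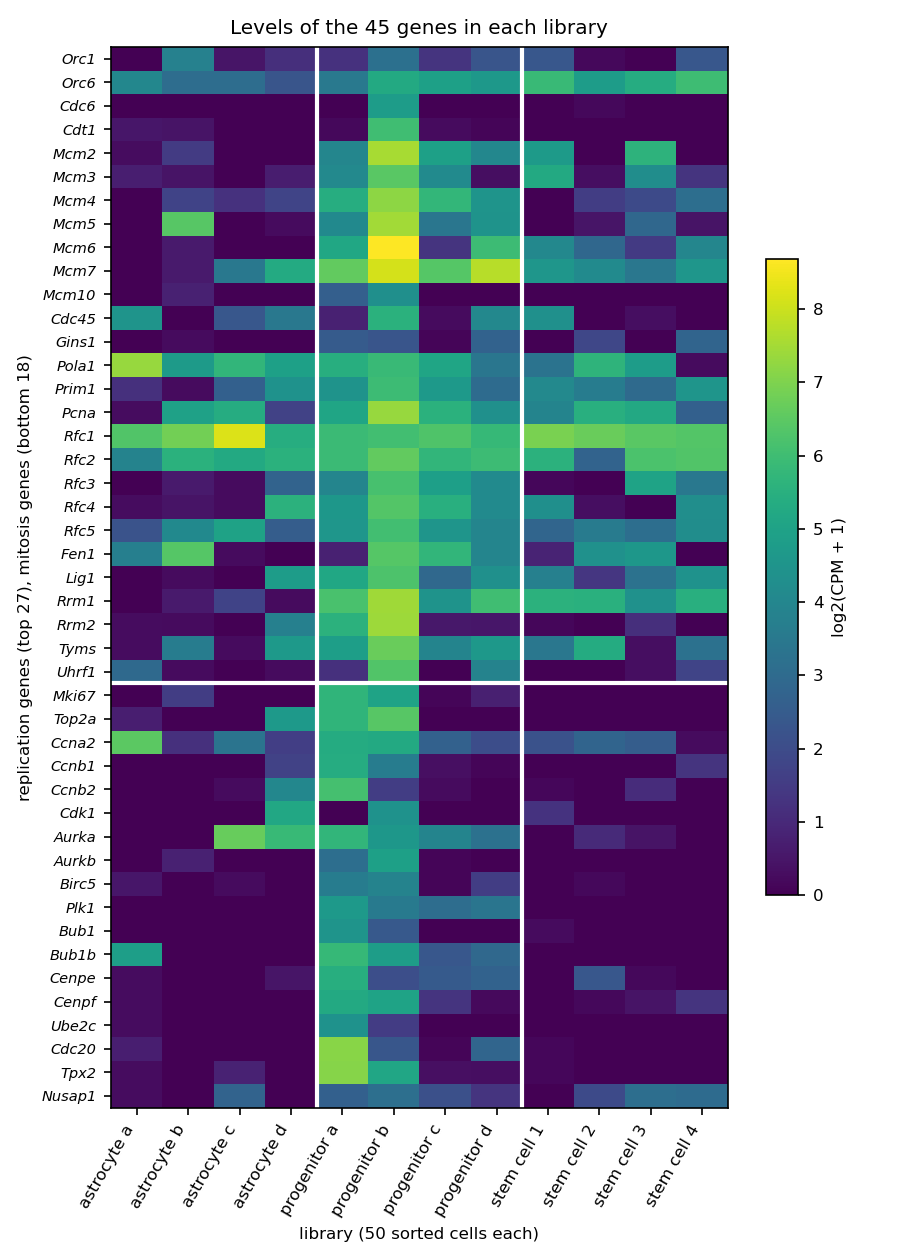
Level of each gene (rows, ordered by role, replication genes above the white line and mitosis genes below it) in each of the 12 libraries (columns), as log2(CPM + 1). Replication genes were brightest in progenitor library b, mitosis genes were bright in progenitor libraries a and b, and the stem cell libraries were dark over nearly all mitosis genes but not over Orc6, Mcm7, Pcna, Rfc1, Rfc2 and Rrm1.

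Each pair of cell types was compared gene by gene by edgeR's quasi-likelihood method within its 8 libraries. A gene needed 10 counts or more in 4 or more libraries to be tested, and a gene was called where the Benjamini-Hochberg adjusted p was under 0.05. Of progenitors against stem cells, 23 of the 27 replication genes could be tested and 2 were higher in progenitors, Mcm7 and Mcm4, which is 7.41% of the list against 4.95% of the 15427 genes tested. None was lower, against 3.66%. The share counts the untested genes of the list as not called and is near that of all genes. The log2 ratio of mean CPM + 1 over all 27 genes had a median of 1.54, or 1.64 with each mean kept at or above the floor of 3 counts per library, against 0.08 for all genes tested, and 25 of the 27 means were higher in progenitors. The exceptions were Rfc1 and Orc6.

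Both called genes encode subunits of the helicase ring. Mcm7 (ENSMUSG00000029730.16, chromosome 5 from 138164583 to 138172422, reverse strand) was at 94.6, 278, 82.4 and 212 CPM in progenitors a to d and at 22.8, 16.8, 9.88 and 22.9 CPM in stem cells 1 to 4. All progenitor libraries were above all stem cell libraries, with a log2 fold change of 3.16 (SE 0.47, adjusted p = 0.0034, edgeR). The call held in all 8 fits that each left out a library and was lost in 1 fit of all 12 libraries (adjusted p = 0.31, edgeR). Other genes, Ap4m1, Cops6 and the microRNA genes Mir25 and Mir93, overlap 12.6% of its exonic bases, and strand was not used in counting. Mcm4 (ENSMUSG00000022673.4, chromosome 16 from 15623897 to 15637400, reverse strand) was at 41.2, 147, 53.1 and 21.3 CPM in progenitors and at 0, 1.95, 2.88 and 7.80 CPM in stem cells. The groups did not overlap and the log2 fold change was 4.35 (SE 1.13, adjusted p = 0.042, edgeR). This call was lost without any single progenitor library or without stem cell library 2 or 3 (adjusted p from 0.056 to 0.15, edgeR), and in the fit of all 12 libraries (adjusted p = 0.17, edgeR).

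The remaining subunits of the ring were not called against stem cells. Mcm5 was at most 6.5 CPM in stem cells and at least 9.7 CPM in every progenitor library, a log2 difference of 4.87 (SE 1.52, adjusted p = 0.084, edgeR). Mcm6 was at 35.4, 409, 1.48 and 60.5 CPM in progenitors and at 15.7, 6.52, 1.75 and 14.9 CPM in stem cells, with overlap (log2 difference 3.65, SE 1.30, adjusted p = 0.13, edgeR). Mcm2, widely used as a marker of cycling progenitors, was at 15.0, 185, 29.8 and 15.0 CPM in progenitors. In stem cells it was at 25.5 and 48.4 CPM in libraries 1 and 3 and at 0 in libraries 2 and 4, so the groups overlapped (log2 difference 1.68, SE 1.54, adjusted p = 0.62, edgeR). The subunits form a ring in equal numbers, yet their mean progenitor levels per kilobase of exon were 37.7 CPM for Mcm7, 27.1 for Mcm6, 18.3 for Mcm4, 13.9 for Mcm5, 8.79 for Mcm2 and 7.98 for Mcm3. Without progenitor library b they were 29.3 CPM for Mcm7, 10.7 for Mcm4, 6.95 for Mcm6, 3.92 for Mcm5, 2.93 for Mcm3 and 2.87 for Mcm2, so that of this order only the first place of Mcm7 and the fourth of Mcm5 were kept. The exon length joins all annotated exons of a gene, 6956 bases for Mcm2 and from 3589 to 4666 for the other subunits. Before this division the progenitor means of Mcm2 and Mcm4 were 61.1 and 65.8 CPM, so the low place of Mcm2 depends on that length.

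The factors that load the ring, Cdc6 and Cdt1, were nearly confined to progenitor library b, at 26.6 and 63.2 CPM there and at most 0.18 CPM in the other progenitor libraries. Cdt1 and Mcm10 had no count in stem cells. Orc6, a subunit of the origin recognition complex, was measured in every library, with a stem cell mean of 46.8 ± 16.1 CPM and a progenitor mean of 25.4 ± 11.5 CPM (SD, n = 4 for both) (log2 difference -0.92, SE 0.46, adjusted p = 0.30, edgeR). Pcna was at 33.7, 162, 45.3 and 19.6 CPM in progenitors and at 14.2, 43.8, 36.6 and 5.39 CPM in stem cells. The groups overlapped, with a log2 difference of 1.34 (SE 0.77, adjusted p = 0.37, edgeR). Rfc1, the large subunit of the clamp loader, was the only replication gene lower in every progenitor library than in every stem cell library, at 64.3 ± 9.35 against 98.0 ± 18.1 CPM (SD, n = 4), and it was not called (log2 difference -0.64, SE 0.23, adjusted p = 0.13, edgeR). Counting Rfc1, 1 replication gene was without overlap and lower, against 7.5% of the genes tested, and 3 (Mcm4, Mcm5 and Mcm7) were without overlap and higher, against 11.8%. Rrm1 and Rrm2 encode the subunits of ribonucleotide reductase, which makes deoxyribonucleotides. Rrm1 averaged 38.7 ± 12.5 CPM across stem cells and 82.1 ± 63.5 CPM across progenitors (SD, n = 4 for both), whereas Rrm2 reached at most 1.25 CPM in stem cells and 47.1 and 169 CPM in progenitors a and b. Fen1, a nuclease of the lagging strand, is uncertain, since other genes overlap 84.2% of its exonic bases.

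Of the mitosis genes, 6 of 18 could be tested against stem cells and 3 were higher in progenitors, Plk1, Bub1b and Aurka, 16.7% of the list against 4.95% of the genes tested. None was lower. The 3 had fewer than 10 counts in every stem cell library and passed the count filter through their progenitor libraries alone, so nothing is read from this share. The other 12 fell under the count filter, and all 18 means were higher in progenitors. The median log2 ratio of mean CPM + 1 was 3.5, or 5.01 with means kept at or above the floor, against 0.08 for all genes tested.

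Plk1 (ENSMUSG00000030867.7, chromosome 7 from 122159439 to 122169873, forward strand), a kinase of mitotic entry, was at 24.7, 11, 7.67 and 9.29 CPM in progenitors and had no count in any stem cell or astrocyte library. Its mean was at least 32.3-fold higher than in stem cells (adjusted p = 0.0063, edgeR), or at least 22.9-fold without progenitor library a. Bub1b (ENSMUSG00000040084.9, chromosome 2 from 118598211 to 118641591, forward strand) was at 54.9, 27.6, 4.16 and 6.62 CPM in progenitors and at 0 in all stem cell libraries, at least 57.2-fold higher, or 31.4-fold without progenitor library a (adjusted p = 0.010, edgeR). Both calls held with each library left out, and in the fit of all 12 libraries that of Plk1 held (adjusted p = 0.014, edgeR) and that of Bub1b was lost (adjusted p = 0.13, edgeR). Aurka (ENSMUSG00000027496.15, chromosome 2 from 172356190 to 172370535, reverse strand), the Aurora kinase of the spindle poles, was at 51.8, 22.9, 13.9 and 8.34 CPM in progenitors and at 0, 1.04, 0.38 and 0 CPM in stem cells. Its log2 fold change was 6.01 (SE 1.32, adjusted p = 0.019, edgeR), and the call was lost without progenitor library a (adjusted p = 0.073, edgeR) and in the fit of all 12 libraries (adjusted p = 0.23, edgeR). The fitted log2 fold changes of Plk1 and Bub1b, 10.03 (SE 1.35) and 10.85 (SE 1.71), depend on the prior count, since a group is at 0.

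Mki67, which encodes the proliferation marker Ki-67, was at 50.7, 31.7, 0.092 and 0.69 CPM in progenitors and at 0 in all stem cell libraries. Only libraries a and b were well above the floor, and the mean was at least 51.0-fold higher than in stem cells, or 26.6-fold without library a. Top2a was at 49.7, 84.6, 0 and 0 CPM in progenitors and at 0 in stem cells, at least 82.3-fold higher in the mean, or 40.6-fold without library b. Neither gene passed the count filter, so neither was tested. Among the tested genes without a call were Ccna2, encoding cyclin A, at 21.5 ± 19.8 CPM in progenitors against 3.66 ± 2.52 CPM in stem cells (SD, n = 4 for both) (adjusted p = 0.22, edgeR), and the kinetochore motor Cenpe (log2 difference 3.67, SE 1.71, adjusted p = 0.26, edgeR). Nusap1, a spindle protein gene, had nearly equal levels of 4.54 ± 2.81 and 4.47 ± 3.70 CPM (SD, n = 4), a log2 difference of -0.02 (SE 1.24).

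**Figure D4:**
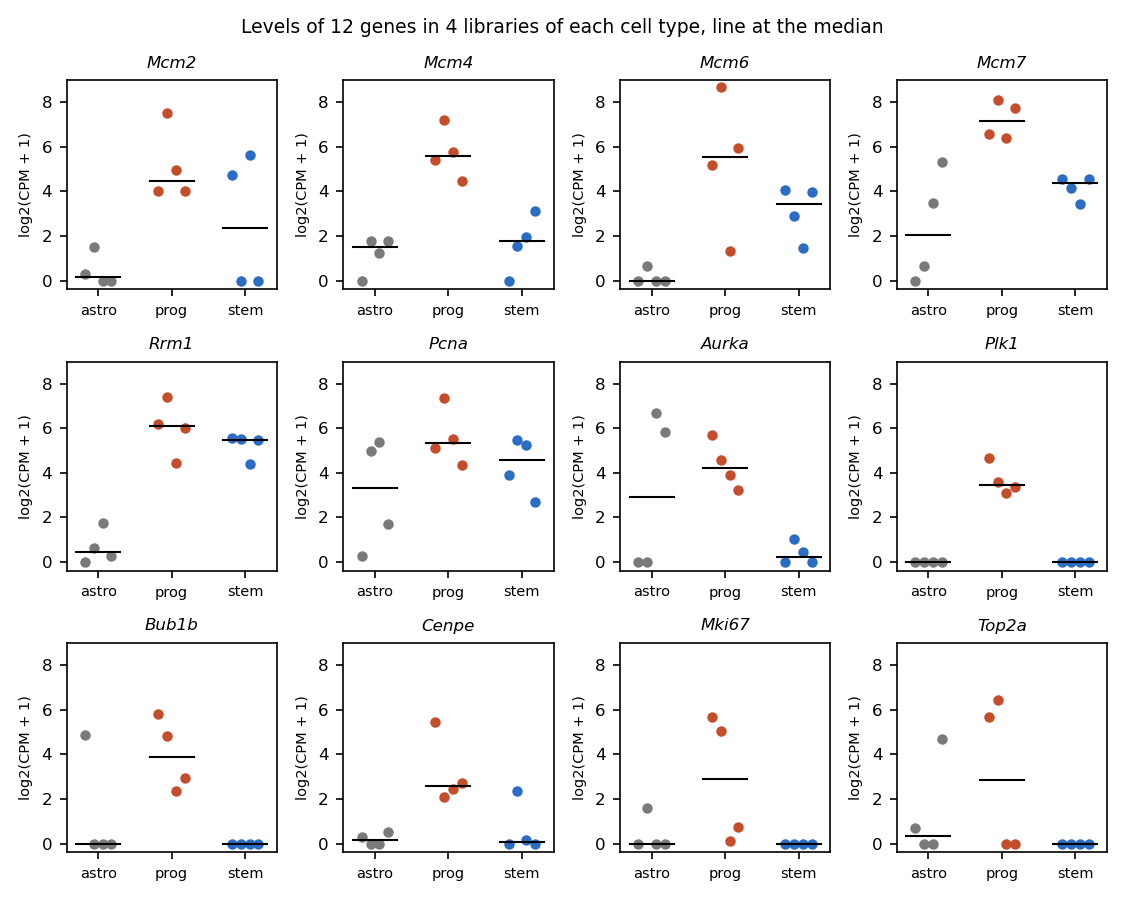
Levels of 12 genes as log2(CPM + 1) in the 4 libraries of astrocytes (astro), progenitors (prog) and stem cells (stem), with a line at the median. In Mcm4, Mcm7, Aurka, Plk1 and Bub1b all progenitor libraries lay above all stem cell libraries, Rrm1 and Mcm6 lay lowest in astrocytes, and in Mki67 and Top2a only 2 progenitor libraries were well above 0.

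The progenitor libraries were not alike, and replication and mitosis genes peaked in different ones. Of the 27 replication genes, 25 had their highest progenitor level in library b, the exceptions being Rfc1 (library c) and Gins1 (library d). Of the 18 mitosis genes, 13 were highest in library a and 5, namely Aurkb, Birc5, Cdk1, Nusap1 and Top2a, in library b. Among 20655 genes with at least 10 counts in any progenitor library, 26.0% were highest in library a and 25.6% in library b. These are single libraries, so no test was made. The ratio of the summed mitosis to the summed replication level was 1.15 in library a, 0.13 in library b, 0.065 in library c and 0.061 in library d.

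Cdc20 and Tpx2, which act at anaphase and at the spindle, were at 141 and 138 CPM in library a and at 4.01 and 34.0 CPM in library b. Ccnb2, encoding a cyclin B, was at 68.8 CPM in a and 2 CPM in b. In the opposite direction, Mcm6 was at 35.4 CPM in a and 409 CPM in b, and Uhrf1, which keeps DNA methylation through replication, at 1.30 and 79.7 CPM. Cdk1, the kinase partner of the cyclins, had no count in library a and 20.5 CPM in library b. The highest library held a median of 55.8% of the progenitor sum of a replication gene and of 69.5% of a mitosis gene. The other replication genes followed the members, with 35 of 41 highest in library b, while the other mitosis genes were divided, with 25 of 55 highest in a and 26 in b.

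**Figure D5:**
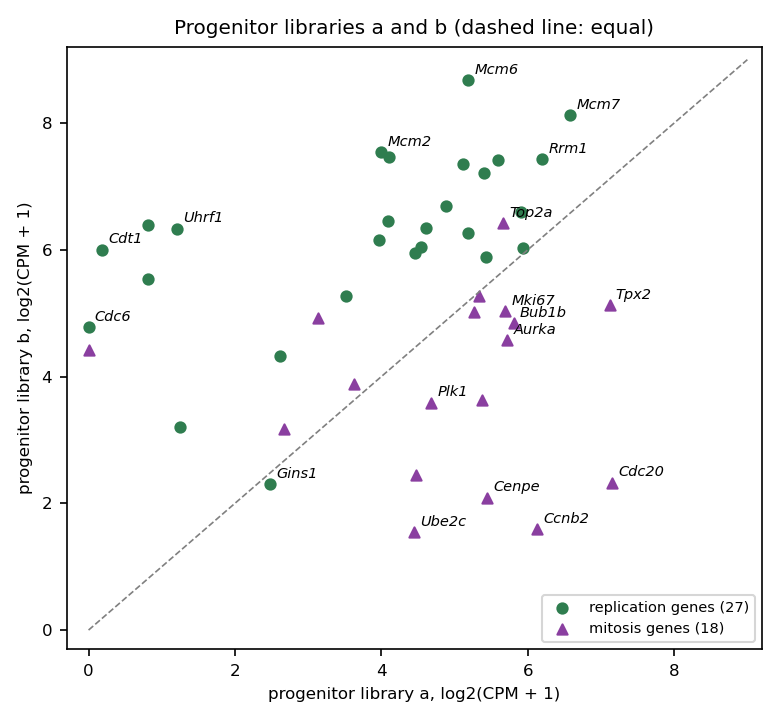
Level of each gene in progenitor library b (y axis) against progenitor library a (x axis), both as log2(CPM + 1), with replication genes as circles, mitosis genes as triangles and a dashed line at equality. All replication genes but Gins1 lay above the line, and 13 of the 18 mitosis genes lay below it.

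Astrocytes against progenitors differed in the same lists, with the same progenitor libraries in both comparisons. Of the replication genes 21 could be tested, and 4 were lower in astrocytes, Mcm6, Rrm1, Mcm4 and Mcm2, 14.8% of the list against 6.18% of the 14806 genes tested. None was higher, against 2.45%. Mcm6 had fewer than 10 counts in every astrocyte library and passed the count filter through progenitors alone, and the other 3 had at most 10 to 13 counts in an astrocyte library, so nothing is read from this share. The median log2 ratio of mean CPM + 1 was -2.13 over the 27 genes, or -2.34 with means kept at or above the floor, against 0.03 for all genes tested, and 7 were without overlap and lower, against 15.2%. Mcm6 (ENSMUSG00000026355.11, chromosome 1 from 128331590 to 128359664, reverse strand) had 3 counts over the 4 astrocyte libraries, at 0, 0.55, 0 and 0 CPM. The progenitor mean of 126 CPM was 923 times that level, with a counting interval (exact Poisson) from 316 to 4478 (adjusted p = 0.016, edgeR), and 237 times without progenitor library b (interval from 81.0 to 1148). Rrm1 (ENSMUSG00000030978.10, chromosome 7 from 102441695 to 102469771, forward strand) was at 0, 0.55, 2.37 and 0.20 CPM in astrocytes and at 72.5, 171, 21.1 and 63.5 CPM in progenitors, a log2 fold change of -6.66 (SE 1.39, adjusted p = 0.016, edgeR). Both calls were lost without progenitor library b (adjusted p = 0.060 and 0.054, edgeR) and held without any other single library.

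Mcm4 was at 0, 2.37, 1.38 and 2.45 CPM in astrocytes, a log2 fold change of -5.37 (SE 1.29, adjusted p = 0.026, edgeR). The call was lost without astrocyte library c or progenitor library a, b or c (adjusted p from 0.052 to 0.11, edgeR). Mcm2 (ENSMUSG00000002870.8, chromosome 6 from 88883474 to 88898780, reverse strand) was at 0.21, 1.83, 0 and 0 CPM in astrocytes, a log2 fold change of -6.83 (SE 1.75, adjusted p = 0.036, edgeR). It was called without astrocyte library b and lost without any other library (adjusted p from 0.051 to 0.16, edgeR), and in the fit of all 12 libraries (adjusted p = 0.072, edgeR). In the study, Mcm2 failed CLEAR, the authors' filter on base coverage, in every comparison of cell types. Pcna failed CLEAR in the comparisons with astrocytes, whose cDNA the study describes as suboptimal in quality. Not every replication gene was low in astrocytes. Pcna was at 0.21, 30.5, 40.7 and 2.25 CPM (log2 difference -1.79, SE 1.31, adjusted p = 0.54, edgeR). Pola1, the catalytic subunit of polymerase alpha, was at 160, 25.6, 51.9 and 29.6 CPM in astrocytes and 35.9 ± 20.4 CPM (SD, n = 4) in progenitors, and Rfc1 was at 133 ± 113 CPM (SD, n = 4) in astrocytes. Both means were higher in astrocytes than in progenitors, and neither difference was called.

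Of the mitosis genes 6 could be tested and 2 were lower in astrocytes, Plk1 and Cenpe, 11.1% of the list against 6.18%. Neither reached 10 counts in an astrocyte library, so nothing is read from this share either. The median log2 ratio over the 18 genes was -2.82, or -3.46 with means kept at or above the floor. Plk1 had no count in astrocytes and was at least 22.0-fold higher in progenitors (adjusted p = 0.016, edgeR), or at least 15.6-fold without progenitor library a. Its call held in each of the 8 fits with a library left out. Cenpe (ENSMUSG00000045328.11, chromosome 3 from 135212537 to 135273611, forward strand) was at 0.21, 0, 0 and 0.41 CPM in astrocytes and at 42.5, 3.26, 4.53 and 5.59 CPM in progenitors. With 3 counts in all in astrocytes, the ratio was 89.8 with a counting interval from 30.7 to 436 (adjusted p = 0.040, edgeR), or 28.7 without progenitor library a (interval from 9.82 to 139). The call held without astrocyte library d and was lost without any other library (adjusted p from 0.063 to 0.083, edgeR), without a count filter (adjusted p = 0.11, edgeR) and in the fit of all 12 libraries (adjusted p = 0.073, edgeR).

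Astrocyte libraries held some mitosis genes at high levels. Of the 18 mitosis genes, 2, 1, 3 and 6 had at least 10 counts in astrocyte libraries a to d. The 6 of library d came near the 7 and 8 of progenitor libraries c and d. Aurka was at 101 and 56.4 CPM in astrocytes c and d, above every progenitor library, and at 0 in a and b. Bub1b was at 27.9 CPM in library a and at 0 in the others, and Ccna2 at 88.6 CPM in library a. Cdk1 and Top2a were at 36.1 and 24.9 CPM in library d, where Ccnb2 was at 15.1 CPM. In the same libraries Plk1 and Bub1 were at 0, and Mki67 was above the floor only in library b, at 2.01 CPM. Each high value came from 1 or 2 libraries, and the mean of Aurka over astrocytes, 39.4 ± 49.0 CPM (SD, n = 4), was not shown to differ from progenitors (log2 difference 0.72, SE 1.75, adjusted p = 0.89, edgeR).

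Astrocytes and stem cells were compared last, and no gene of either list was called among 15 replication and 2 mitosis genes tested, against 0.0468% of the 12831 genes tested (6 genes, all higher in astrocytes). At an unadjusted p under 0.05, 3 replication genes and no mitosis gene passed, against 9.55% of the genes tested. These were Rrm1 (log2 difference -5.59, SE 1.47, adjusted p = 0.15, edgeR), Mcm6 (-5.92, SE 1.72, adjusted p = 0.20) and Orc6 (-2.46, SE 0.92, adjusted p = 0.38), each lower in every astrocyte library than in every stem cell library, as were 6.28% of the genes tested. DESeq2 called these 3 lower in astrocytes (adjusted p = 2.6e-05, 0.020 and 0.015) and no mitosis gene, against 4.95% of the genes tested, called in either direction. Mcm6 had at most 3 counts in an astrocyte library and passed the count filter through stem cells alone. Rrm1 had at most 12 counts in an astrocyte library, whereas Orc6 reached 10 counts in every library of both groups. Nothing is therefore read from the 3 genes against these shares of the genes tested. Rrm1 was at 46.8, 44.4, 20.1 and 43.5 CPM in stem cells 1 to 4, overlapping with the progenitor libraries. The median log2 ratio of astrocytes over stem cells was -0.42 for the replication genes and 0.21 for the mitosis genes, against 0.14 for all genes tested.

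The other genes of the pathways, 41 of replication and 55 of mitosis, were compared in the same way. Against stem cells, 2 of 41 other replication genes were higher in progenitors and none lower, Cdc7, the kinase that fires origins (log2 fold change 8.20, SE 1.34, adjusted p = 0.0055, edgeR), and Wdhd1, a replisome protein gene (7.34, SE 1.27, adjusted p = 0.0069, edgeR). Of the other mitosis genes 2 of 55 were higher and none lower, Racgap1, of the central spindle (10.38, SE 1.11, adjusted p = 0.00080, edgeR), and the kinesin gene Kif22 (7.38, SE 1.65, adjusted p = 0.021, edgeR). These are 4.88% and 3.64% of the lists, with untested genes counted as not called, against 4.95% of all genes tested. Tested were 31 and 30 of the 2 lists, so the shares of their tested genes are higher than these. With fitted differences this large, a gene can be near 0 in stem cells and pass the count filter through progenitors alone. Nothing is read from these shares. In astrocytes, none of the other replication genes and 5 of the other mitosis genes (9.09%) were lower than in progenitors, against 6.18% of the genes tested, and none was higher. The strongest of the 5 were Kif22, with no count in astrocytes against 27.8 CPM in progenitors, and Racgap1, at 0.16 against 103 CPM (adjusted p = 0.037 and 0.011, edgeR). Both astrocyte means lay under the floor of 3 counts per library. Both genes passed the count filter through progenitors alone, so nothing is read from the share of 9.09%. The large fitted log2 fold changes against stem cells depend on the prior count where a group is at or near 0.

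Markers of other cell types also differed between the groups, but not all in the same direction. The 6 oligodendrocyte precursor markers summed to between 1925 and 3202 CPM in progenitors, 63.7 and 144 CPM in stem cells, and 43.1 and 321 CPM in astrocytes. All 6 were tested and 5 were called higher in progenitors than in stem cells, against 4.95% of all genes tested. The 8 markers of neuronal progenitors and neuroblasts summed to between 675 and 1331 CPM in progenitors, 6.13 and 38.3 CPM in stem cells, and 4.93 and 225 CPM in astrocytes. Of these, 6 could be tested and 4 were called higher in progenitors than in stem cells, against the same 4.95%. Between astrocytes and stem cells, only 3 of the 6 and 2 of the 8 markers passed the count filter. Several markers thus passed it mainly through progenitors, and nothing is read from these shares. The 9 astrocyte markers were highest in stem cells, between 26353 and 35669 CPM, against 17345 to 23570 CPM in astrocytes and 8428 to 11071 CPM in progenitors. Mural cell markers (5 genes) averaged 1284 CPM in progenitors, 78.6 CPM in stem cells and 113 CPM in astrocytes. They differed within progenitors, at 2083, 39.4, 2100 and 912 CPM in libraries a to d, so that library b, with the highest replication level, had the lowest. In astrocytes the 5 oligodendrocyte markers summed to 2901, 1288, 607 and 214 CPM in libraries a to d, against a mean of 115 CPM in progenitors. Neuron markers (4 genes) averaged 437 CPM in astrocytes, 296 CPM in progenitors and 78.3 CPM in stem cells. Microglia markers (5 genes) averaged 54.8, 12.8 and 38.6 CPM in the same order. Endothelial markers (5 genes) reached 130 CPM in stem cell library 2 and at most 7.7 CPM in any other library. The part of these cell types in the differences of replication and mitosis genes was not tested.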

How the data were processed

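Counts per gene were deposited by the authors as whole numbers without normalization. Reads from SMARTer v4 cDNA and Nextera XT libraries, without molecular identifiers, had been aligned to GRCm38p4 with HISAT2 2.0.6 (version per the submitters' notes) after removal of ribosomal, mitochondrial and PhiX reads, and counted on GENCODE M14 genes with featureCounts without strand. Amplified copies were therefore counted separately, and intervals and floors cover counting error only. All 12 columns were used, and replicate libraries differed by far more than sampling noise. Symbols and positions follow GENCODE M21 on GRCm38 (50376 of 50600 identifiers matched). CLEAR, the authors' filter on base coverage, was not applied, since it needs coverage along transcripts.

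Cell types were compared in pairs using edgeR 4.0.16 and R 4.3.3 (quasi-likelihood on TMM-normalized counts, at least 10 counts in at least 4 of 8 libraries, or in at least 3 where a library was left out, Benjamini-Hochberg over all genes tested, threshold 0.05), and the steps were tested on simulated data. Each SE was taken as the absolute log2 fold change over the square root of F. CPM used TMM factors over 12 libraries. The median ratios over the lists used a pseudocount of 1 CPM, which understates changes of low genes, and no test was made over a list. Folds against a group without counts are lower bounds at 3 counts per library. Other steps used Python 3.11.15 with numpy 2.4.6, pandas 2.3.3, scipy 1.17.1 and matplotlib 3.10.9. Alternatives were DESeq2 1.42.0, DESeq2-type size factors, no filter, a minimum of 10 counts in all libraries, 1 fit of 12 libraries, thinned counts, 1 count for detection, total counts for sums, and each library left out.

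The genes, lists and tests were chosen with earlier results of these data known. By rule, every one of the 45 genes could be named, values in every library were given for called genes and for Pcna, Mcm2, Mki67 and Top2a, and of the other pathway genes the 2 called genes of largest log2 fold change per list and comparison were named. One other mitosis gene could not be matched. Promoters came from RefSeq (GRCm38.p6). Where a gene has several windows, the highest number of matches over them was taken for each motif separately. Different motifs of such a gene can therefore come from different windows.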

Additional observations from a re-analysis of the deposited data

Results flagged for a closer look

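The measure was taken over 40 groups of 4 libraries, those of the 9 called genes, Pcna, Mki67 and Top2a in each cell type where a library had at least 10 counts, and those of the summed levels and the numbers of genes with 10 counts. In 11 of them the highest or lowest library lay farther from its neighbour than Dixon's critical value for 4 values allows, as a share of the group's range. For normally distributed values chance exceeds this value in about 1 in 20 groups, which does not hold for groups that are mostly at 0. In progenitors, library b stood apart above the others in Mcm2 (185 CPM), Mcm6 (409 CPM) and the replication sum (2825 CPM), and library a in Cenpe (42.5 CPM). In astrocytes, library a stood apart in Bub1b (27.9 CPM), library b in Mcm2 (1.83 CPM) and Mki67 (2.01 CPM) and library d in Top2a (24.9 CPM), while library b was lowest in the mitosis sum (4.02 CPM). In stem cells, library 2 was highest in Cenpe (4.17 CPM) and library 3 lowest in Rrm1 (20.1 CPM). The same measure over all members was exceeded in 36 of the 103 groups in which a library had at least 10 counts, 12 of them in progenitors.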

How the results depend on the processing

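For progenitors against stem cells, the 2 replication calls became 5 with DESeq2 (Mcm4, Mcm5, Mcm6, Mcm7 and Uhrf1, against 15.5% of all genes) and 0 in 1 fit of all 12 libraries, and ranged from 1 to 3 with a library left out, with 1 call (Mcm7) without progenitor library a, b or d or stem cell library 2. The 3 mitosis calls became 5 without a count filter, with Cdc20 and Tpx2 added, and 1 (Plk1) in 1 fit of all 12 libraries, and ranged from 2 to 5 with a library left out, with 5 without progenitor library c. For astrocytes against progenitors, the 4 replication calls became 0 with at least 10 counts in every library, where 5 genes were left to test, and ranged from 0 to 6 with a library left out, with 0 without progenitor library b and 2 without progenitor library a or astrocyte library c. With DESeq2 they were 6 (against 16.4% of all genes). The 2 mitosis calls became 1 (Plk1) with DESeq2, without a count filter and in 1 fit of all 12 libraries, and ranged from 1 to 2 with a library left out, with 1 without progenitor library a, b or c or astrocyte library b or c. For astrocytes against stem cells, 0 replication calls became 3 with DESeq2 and 1 (Rrm1) in 1 fit of all 12 libraries. Where no construction is named, the cause was not tested. No mitosis gene had at least 10 counts in every library of a comparison, so that setting gave no value. Counting genes with 1 count moved detection to 19.25 replication and 6.5 mitosis genes in astrocytes and to 20.25 and 5.5 in stem cells. Without astrocyte library c, the uncalled log2 differences reversed to -0.37 for Aurka in astrocytes against progenitors and to -0.36 for Rfc1 in astrocytes against stem cells, and over all leave-one-out fits they ranged from -0.37 to 1.40 and from -0.36 to 0.72. Of the other single-gene values, 365 kept their direction and side of the threshold, 35 lost a call and 10 gained one. The summed levels of the replication and mitosis genes moved by less than 1 SD with total counts alone and with DESeq2-type size factors. Leaving out 1 of 4 libraries cannot move a mean by 1 SD, so that setting is not judged by it. The replication mean of progenitors fell from 1221 to 687 CPM without library b, and the mitosis mean from 318 to 155 CPM without library a. The leave-out settings for sums, detection, bounds and levels per kilobase were chosen after seeing the data. No paired analysis was possible because the astrocyte and progenitor columns carry no replicate numbers. With 50 cells per library and 4 libraries per group, genes present in few libraries fell under the count filter, so the mitosis genes were mostly described and not tested.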
